A study of Mus musculus with 8 samples.

Results

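The EMAP-like proteins (echinoderm microtubule-associated protein-like, gene symbols Eml1 to Eml6) are a family of 6 mouse genes, and all 6 were found by symbol among the 31417 genes of the count table. The family was chosen by the level of Eml5, which was higher in knockout hippocampus in these same counts, so the difference of Eml5 between genotypes is described without a test. The other 5 genes were taken by name. Messenger RNA of the mouse hippocampus was sequenced in 8 libraries, 4 from Dclk3 knockout (KO) mice and 4 from wild-type (WT) control mice, all at an age of 12 months, with each RNA sample drawn from a single hippocampus. Dclk3 encodes a brain-enriched kinase of the doublecortin-like group. The sources used here give neither the strain nor the removed part of Dclk3, and do not state that the libraries of a genotype come from separate animals. Therefore p-values measure the spread between these samples, which may be in part technical.

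EMAP-like proteins are microtubule-associated proteins that share a compact domain built of WD40 repeats with the HELP motif. EML1 to EML4 also carry an N-terminal region with a coiled coil, through which the proteins assemble into trimers and bind the microtubule lattice. EML5 and EML6 lack that coiled coil and consist of the WD40 domain repeated in tandem. In the brain the family is best known for Eml1, whose mutation in mice and people places cortical neurons in an abnormal band below the cortex, while EML4 is best known as the partner of the ALK kinase in a lung cancer fusion.

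The gene models showed the same division. In the GENCODE M21 annotation of mm10, the longest coding sequence ran to 1977 codons for Eml5 and 1958 codons for Eml6, against 814 codons for Eml1, 841 for Eml2, 897 for Eml3 and 988 for Eml4. Eml5 (ENSMUSG00000051166) lies on the minus strand at chr12:98786805-98901484 with 44 exons in its longest coding transcript. Eml1 (ENSMUSG00000058070) lies on the plus strand of the same chromosome at chr12:108370957-108539617. The other members lie apart: Eml2 (ENSMUSG00000040811) at chr7:19176421-19206482, Eml3 (ENSMUSG00000071647) at chr19:8929552-8941582, Eml4 (ENSMUSG00000032624) at chr17:83350931-83480361, and Eml6 (ENSMUSG00000044072) at chr11:29743048-30026033, the last on the minus strand and the others on the plus strand. On the transcript strand, no member shared a stretch of 50 identical bases with another member. At most 1.48% of such stretches, in Eml1, occurred in transcripts of other annotated genes. The opposite strand was not searched, so exon bases shared with genes on that strand, described below, are not in this figure.

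Eml5 and Eml6 each had 1 start site in the RefSeq table, while Eml1 had 5 and Eml2, Eml3 and Eml4 had 2 each. The 250 bases before the start of both long members are shown because all annotated transcription of each gene in that table begins there. They were read from the RefSeq promoter table for GRCm38, the assembly of mm10, on the minus strand, at chr12:98901485-98901734 for Eml5 and chr11:30026034-30026283 for Eml6. Capitals mark the GC box, GGGCGG or its complement CCGCCC.
Eml5: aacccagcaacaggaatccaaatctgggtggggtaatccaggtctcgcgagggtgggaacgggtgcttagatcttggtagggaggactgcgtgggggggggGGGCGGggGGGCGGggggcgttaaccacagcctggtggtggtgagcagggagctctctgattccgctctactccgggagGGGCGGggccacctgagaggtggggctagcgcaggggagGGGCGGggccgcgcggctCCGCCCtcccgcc
Eml6: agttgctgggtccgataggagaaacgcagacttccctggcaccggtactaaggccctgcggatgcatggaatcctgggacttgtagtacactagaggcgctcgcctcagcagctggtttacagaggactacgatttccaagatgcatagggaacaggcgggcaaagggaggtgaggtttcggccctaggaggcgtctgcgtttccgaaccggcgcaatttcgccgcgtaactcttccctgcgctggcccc
The Eml5 window held 5 GC boxes and the Eml6 window none, where 33% of all 32544 promoter windows of this length held at least 1 and 1.44% held 5 or more. G and C made up 70% of the Eml5 window and 58.8% of the Eml6 window, with a median of 52.4% over all windows. Both strands were searched, and the matches describe letters only.

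Libraries held 29301974 to 36552757 counts, so that 1 count stood for 0.0274 to 0.0341 CPM. CPM are counts scaled to equal library size. All 6 members passed the filter on low counts, and the lowest count of any member in any library was 278, for Eml3. Dclk3 itself checked the labels: it lay at 5.92 to 9.29 CPM in KO libraries, against 20.8 to 39.3 CPM in WT libraries. All 8 defining markers of hippocampal neurons were present in every library, Prox1 of dentate granule cells for instance at 113 to 130 CPM in KO libraries and 97.8 to 117 CPM in WT libraries. Prox1 shows presence only and not the direction of the list. Of the 8 markers, 2 had a log2 fold change (KO over WT) above 0, and the median was -0.11. Choroid plexus markers, from a tissue that borders the hippocampus, varied widely within both genotypes, with a summed level of 193 to 3482 CPM in KO and 75.1 to 2249 CPM in WT libraries. KO replicates 2 and 3 and WT replicates 2 and 3 held over 900 CPM of these markers.

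Eml5, first described in rat brain, was higher in the hippocampus of KO mice. The KO libraries had 73.7, 72.7, 68.4 and 61.4 CPM, against 53.5, 49.6, 54.5 and 50.6 CPM in WT libraries. Every KO library lay above every WT library, as was true of 1.88% of the 16228 genes tested (3.8% parted the genotypes in either direction). The means were 69.0 ± 5.61 CPM in KO and 52.0 ± 2.33 CPM in WT (SD, n = 4 each), a ratio of 1.33. Before scaling for depth the lowest KO count, 1918 in KO replicate 4, was just under the highest WT count, 1922 in WT replicate 1, which was the largest library. As a description of depth, the exact 95% Poisson interval was 58.7 to 64.2 CPM for KO replicate 4, the lowest KO library, and 51.9 to 57.2 CPM for WT replicate 3, the highest WT library. Such intervals cover counting error only.

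**Figure D1:**
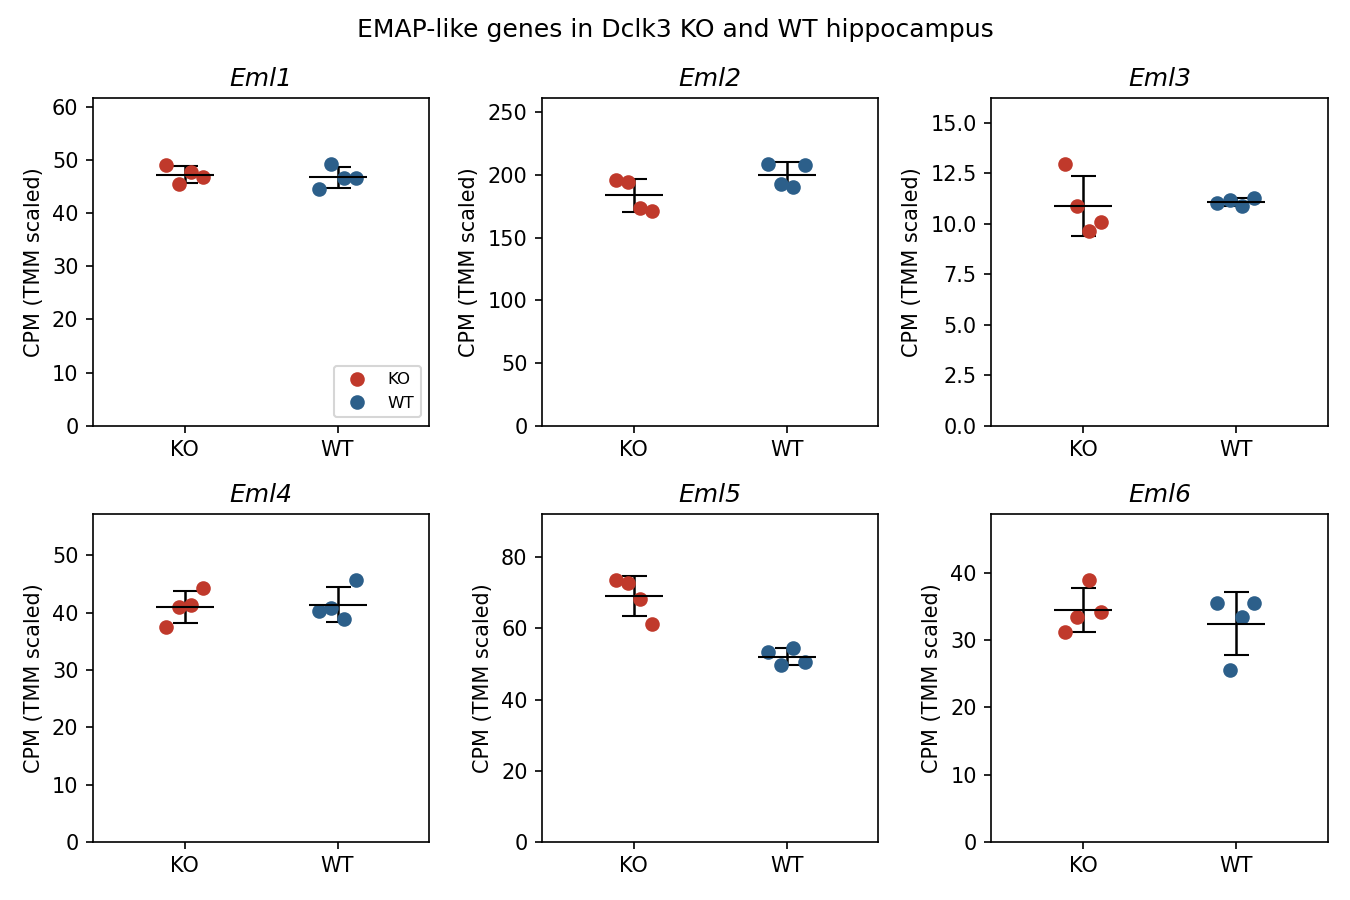
Level of each EMAP-like gene in CPM (TMM scaled, axes from 0) in the 4 KO and the 4 WT libraries; points are libraries, bars the mean and SD. Eml5 lies at 61.4 to 73.7 CPM in KO and 49.6 to 54.5 CPM in WT libraries, and the ranges of the other 5 genes overlap.

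The log2 fold change of Eml5 (KO over WT) was 0.41 (SE 0.07), and 799 of the 16228 genes, or 4.92%, had one at least as high. It stayed between 0.38 and 0.46 in 16 alternative fits, including 0.38 in the 2 KO and 2 WT libraries that were low in choroid plexus markers. Because the gene was picked for this difference, these values describe it and add no support. Over the whole table edgeR called 0 genes (0%) at an adjusted p under 0.05, with 1000 genes at an unadjusted p under 0.05. Dclk3 itself, at a log2 fold change of -1.79, was not called by edgeR either (edgeR adjusted p = 0.234). limma-voom likewise called 0 genes, whereas DESeq2 called 4: Dclk3, Col6a4, Zcchc7 and Eml5. For Eml5 that call rests on the difference that chose it and is no test of it.

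Of 11 cell type marker lists, only that of interneurons parted the genotypes in its summed level, and no list was tested. Over all genes tested, 3.8% parted the genotypes in either direction and 50.1% had a log2 fold change above 0. Markers in the same list may vary together, so the counts below are descriptions. Summed markers of interneurons were 1054 to 1112 CPM in KO and 1146 to 1233 CPM in WT libraries, without overlap, and 3 of the 12 markers had a log2 fold change above 0. Dentate granule cell markers had 15 of 15 above 0, with summed levels of 1017 to 1185 CPM in KO and 879 to 1023 CPM in WT libraries. CA1 pyramidal cell markers had 1 of 10 above 0, with 863 to 1069 CPM in KO and 967 to 1115 CPM in WT libraries, and oligodendrocyte markers 10 of 10, with 4451 to 4997 CPM in KO and 3646 to 5206 CPM in WT libraries. Microglia markers also had 10 of 10 above 0, with 644 to 740 CPM in KO and 603 to 697 CPM in WT libraries. The log2 fold change was above 0 for 9 of 10 endothelial, 9 of 10 choroid plexus, 8 of 10 cortical, 8 of 10 astrocyte and 3 of 10 CA3 markers, and for 6 of the 9 thalamic markers tested. After the genotype means were subtracted, the summed level correlated with Eml5 over the 8 libraries most strongly for CA3 markers, at r = -0.87. The r was -0.62 for microglia, -0.56 for dentate granule cell and 0.27 for interneuron markers. For the other lists it lay between -0.46, for astrocyte, and 0.29, for thalamic markers. With the genotype means left in, the r for interneuron markers was -0.78, the largest in size of the 11 lists. No marker in these lists was at 0. Their part in the level of Eml5 was not tested, and in bulk tissue a change in the number of cells of a type and a change in RNA per cell cannot be told apart.

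Eml6, the other long member, whose protein is known from microtubule control in mouse oocytes, overlapped between genotypes. Its level was 31.1, 33.4, 38.9 and 34.1 CPM in KO libraries, against 35.4, 25.5, 33.4 and 35.4 CPM in WT libraries. WT replicate 2 was the lowest library and KO replicate 3 the highest, and the other 6 lay between 31.1 and 35.4 CPM. The log2 fold change was 0.08 with a 95% interval of -0.16 to 0.33 (edgeR adjusted p = 0.898; exact two-sided permutation p = 0.600). The direction was not settled: without WT replicate 2 the log2 fold change was -0.013, and in the libraries low in choroid plexus markers -0.11. In percent the interval of Eml6 ran from -10.4% to 25.4%, and overlapped that of Eml5, 19.5% to 47.2%. The difference between the 2 genes was not tested.

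Among the members with a coiled coil, Eml2 was the most abundant and differed most in the fit. Shorter Eml2 products that lack the coiled coil are known, and human EML2 has been linked to microtubule destabilization. Eml2 had 195.6, 194.5, 173.6 and 171.6 CPM in KO libraries, against 209.1, 192.8, 190.7 and 208.1 CPM in WT libraries. KO replicates 3 and 4 lay below all WT libraries, while KO replicates 1 and 2 lay within the WT range. The log2 fold change was -0.12 (SE 0.07) with a 95% interval of -0.27 to 0.02 (edgeR adjusted p = 0.796; exact two-sided permutation p = 0.171). It was below 0 in each of the 16 alternative fits, from -0.18 to -0.093.

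Eml1, the heterotopia gene, had a narrow spread: 49.2, 45.5, 47.7 and 46.8 CPM in KO libraries, against 44.5, 49.4, 46.6 and 46.7 CPM in WT libraries. The KO range lay within the WT range. Its log2 fold change was 0.02 with a 95% interval of -0.10 to 0.13 (edgeR adjusted p = 0.964; exact two-sided permutation p = 0.743). In percent, that interval ran from -6.85% to 9.77%, the narrowest among the 6 genes.

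Eml4, which stabilizes microtubules in interphase, stood at 37.5, 41.1, 41.3 and 44.2 CPM in KO libraries, against 40.3, 40.7, 38.9 and 45.7 CPM in WT libraries. The ranges overlapped, with a log2 fold change of -0.01 and a 95% interval of -0.17 to 0.14 (edgeR adjusted p = 0.978; exact two-sided permutation p = 0.83). Eml3, known in dividing cells for bringing nucleation factors to the spindle, was the member with the fewest counts. It had 13.0, 10.9, 9.62 and 10.1 CPM in KO libraries, against 11.02, 11.16, 10.86 and 11.27 CPM in WT libraries. The WT libraries lay close together, with a coefficient of variation of 1.63%, while the KO libraries spread on both sides of them, with 13.7%. The log2 fold change of Eml3 was -0.02 with a 95% interval of -0.25 to 0.20 (edgeR adjusted p = 0.98; exact two-sided permutation p = 0.914). No direction can be given for Eml1, Eml3 or Eml4, since each turned sign in at least 1 alternative fit, among them the upper quartile scaling for Eml4 (0.0032). With 4 libraries against 4, no permutation p can fall below 0.0286.

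**Figure D2:**
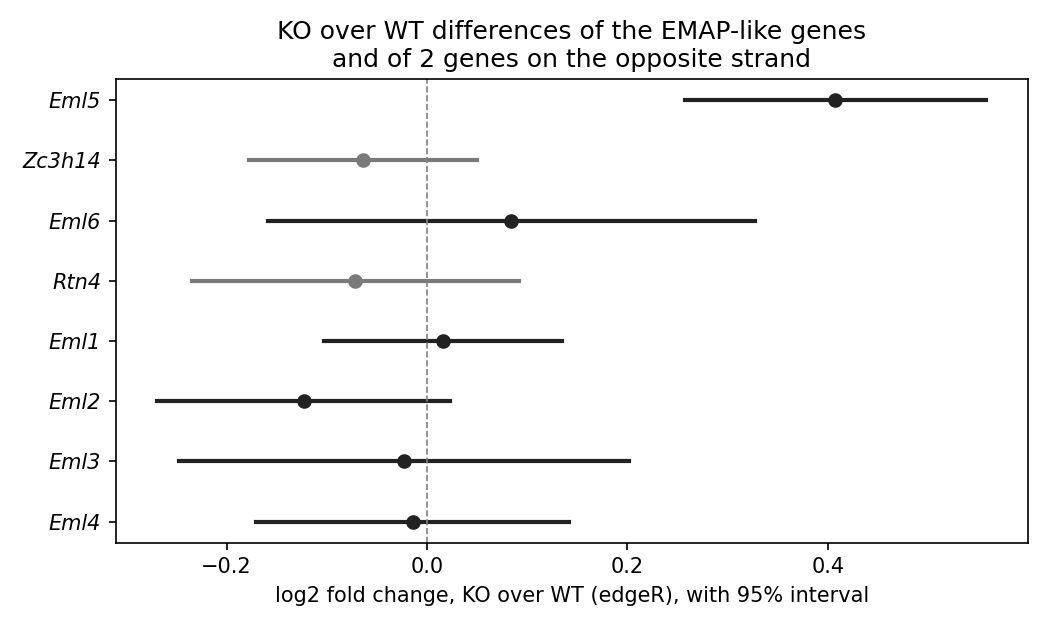
Log2 fold change, KO over WT, from edgeR with its 95% interval for the 6 EMAP-like genes (dark) and for Zc3h14 and Rtn4, coding genes that overlap Eml5 and Eml6 on the opposite strand (grey). Eml5 lies at 0.41, and the intervals of the other 5 members and of both overlapping genes include 0.

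Both long members share exon bases with a coding gene on the opposite strand. The sources used here do not state whether counting used strand, and without it shared reads cannot be told apart. Zc3h14, which encodes a zinc finger protein that binds poly(A) RNA, shares 949 exon bases with Eml5, or 7.89% of the Eml5 exon length. It had 69.9, 76.5, 71.8 and 72.5 CPM in KO libraries, against 75.1, 79.4, 74.7 and 74.6 CPM in WT libraries. Zc3h14 thus lay on the opposite side from Eml5, with overlapping ranges and a fitted log2 difference, KO over WT, of -0.06 (SE 0.05; edgeR, adjusted p = 0.828). Rtn4, which encodes the axon growth inhibitor Nogo, shares 1284 exon bases with Eml6, or 13.8%, and was far more abundant. Rtn4 had 674 ± 58.4 CPM in KO and 708 ± 22.6 CPM in WT (SD, n = 4 each), and the fitted log2 difference was -0.07 (SE 0.07; edgeR, adjusted p = 0.870). Eml1 shares 319 exon bases, 4.29%, with the antisense gene Gm16596, which had 228 counts in all 8 libraries together.

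The wider surroundings of Eml5 showed no called gene, as edgeR called 0% of all genes tested. Within 1 Mb of its midpoint 7 other coding genes were tested, 5 with a log2 fold change above 0 and 2 below, and their median was 0.08, against 0.00029 over all genes tested. That median was 0.036 without KO replicate 4 and 0.048 in the libraries low in choroid plexus markers. edgeR called none of the 7 at an adjusted p under 0.05, and none was at an unadjusted p under 0.05, where 3.96% of all genes tested were higher and 2.2% lower in KO at that limit, 6.16% in all. In none of the 7 did the genotypes part, where 3.8% of all genes tested did in either direction. With 7 genes, these counts do not set the surroundings apart from all genes. Ttc8 of the Bardet-Biedl ciliary complex, the next of them beyond the Eml5 start, had the largest value, 0.19 (SE 0.10), with 13.1 to 16.9 CPM in KO and 11.4 to 14.3 CPM in WT libraries. Foxn3, a forkhead repressor, stood at 0.12 and Galc, the lysosomal galactosylceramidase, also at 0.12. The phosphatase gene Ptpn21 stood at 0.08 and Spata7, known from the photoreceptor connecting cilium, at 0.01. Kcnk10, a two-pore potassium channel, lay at -0.08, beside Zc3h14 on the lower side.

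**Figure D3:**
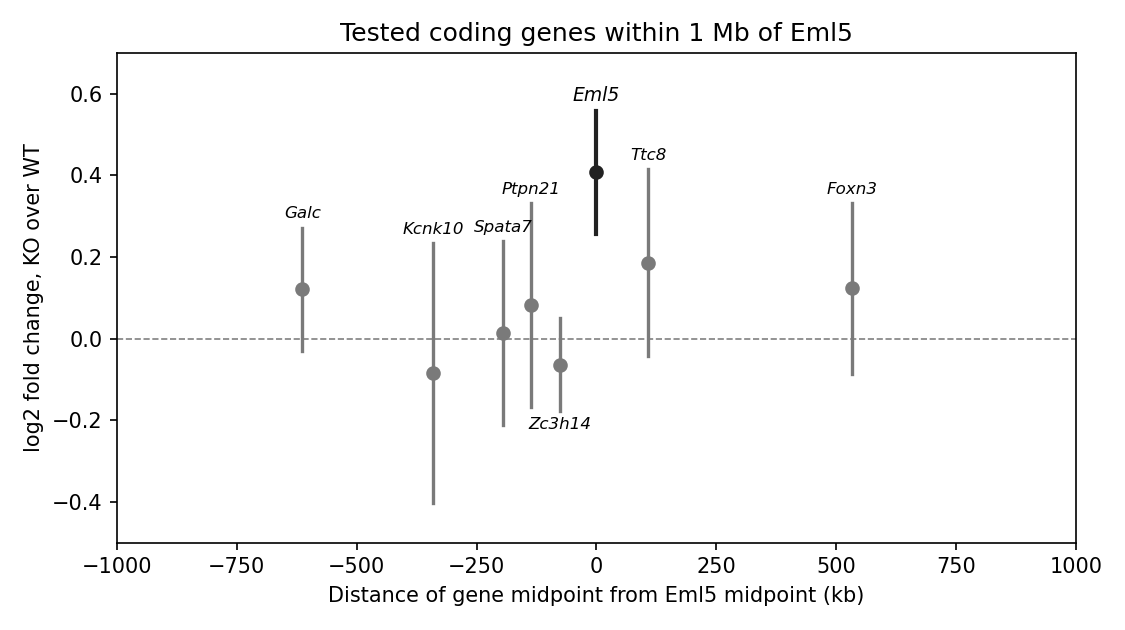
Log2 fold change, KO over WT, with its 95% interval for Eml5 (dark) and the 7 tested coding genes within 1 Mb (grey), by the distance of their midpoints from that of Eml5 in kb. Each of the 7 intervals includes 0, and their values run from -0.08 for Kcnk10 to 0.19 for Ttc8.

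Levels were set side by side between members per kilobase of merged exons, since a long transcript yields more counts. Eml2 led at 52.1 ± 3.68 CPM per kb in KO and 56.7 ± 2.76 CPM per kb in WT (SD, n = 4 each). Its level was 7.97 times that of the next gene over the 8 libraries, in 8 of 8 of them (exact sign-flip permutation test, two-sided, p = 0.00781; adjusted p = 0.00977 over the 5 neighbouring pairs). The smallest p that 8 libraries allow in this test is 0.00781.

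Eml4 followed at 6.79 ± 0.456 CPM per kb in KO and 6.86 ± 0.496 CPM per kb in WT, and Eml1 at 6.36 ± 0.209 CPM per kb in KO and 6.29 ± 0.269 CPM per kb in WT. Eml4 was above Eml1 in 7 of 8 libraries (exact sign-flip permutation adjusted p = 0.0469), but by a ratio of only 1.08, and this pair failed the test (exact permutation p = 0.0625 to 0.0938) when any library other than KO replicate 1 was left out. That order turned round when the longest transcript was used as the length, with Eml1 1.49 times above Eml4 in 8 of 8 libraries, so these 2 genes cannot be ranked. Eml5 came next at 5.74 ± 0.466 CPM per kb in KO and 4.33 ± 0.194 CPM per kb in WT. It was below Eml1 in 8 of 8 libraries and above Eml6 in 8 of 8, given as a description, since the KO levels of Eml5 chose the family.

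The distance of Eml5 to Eml1 differed by genotype as a matter of description: KO libraries had 5.10 to 6.13 CPM per kb of Eml5 beside 6.12 to 6.61 of Eml1, and WT libraries 4.12 to 4.53 beside 5.98 to 6.64. Eml6 had 3.71 ± 0.353 CPM per kb in KO and 3.49 ± 0.508 in WT, and Eml3 was lowest at 2.65 ± 0.362 CPM per kb in KO and 2.70 ± 0.0439 in WT. Eml6 was above Eml3 in 8 of 8 libraries (exact sign-flip permutation adjusted p = 0.00977), by a ratio of 1.35.

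**Figure D4:**
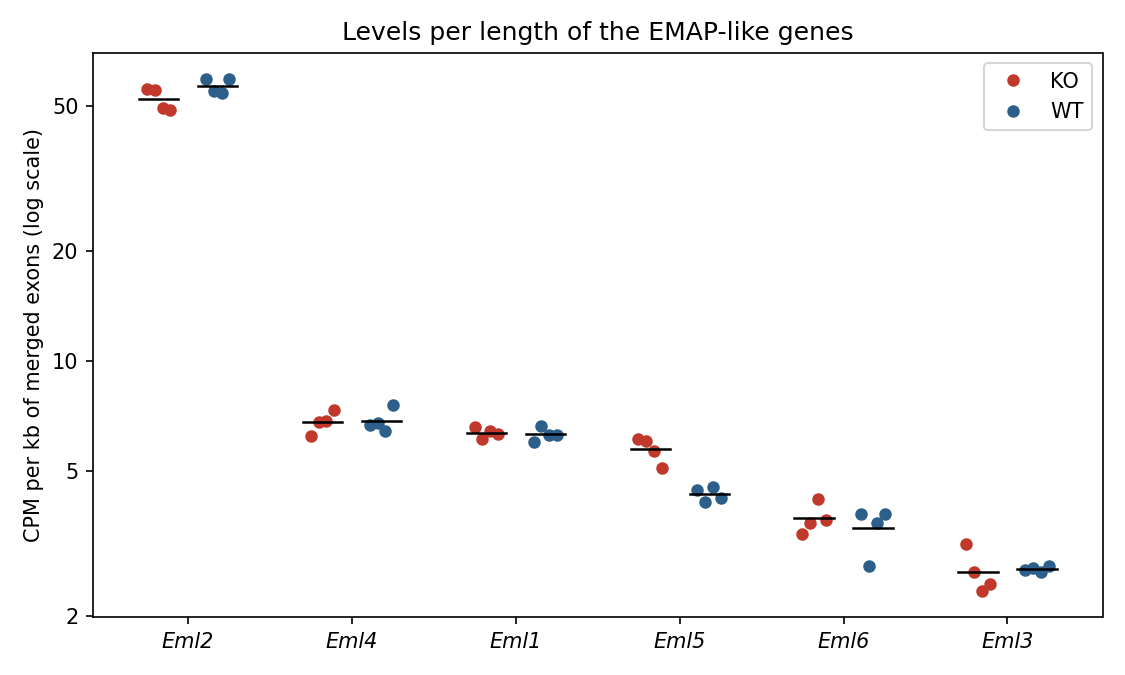
Level of each EMAP-like gene in CPM per kb of merged exons (log scale) in KO and WT libraries, with bars at the mean of each genotype. Eml2 lies at 48.6 to 59.2 CPM per kb, and the other members between 2.34 and 7.58.

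As a share of the family's summed level per kb, Eml5 held 7.41% ± 0.316 in KO and 5.39% ± 0.337 in WT (SD, n = 4 each). Eml2 held 67.3% ± 1.47 in KO and 70.5% ± 0.736 in WT. The sum over the 6 genes was 73.5 to 80.9 CPM per kb in KO and 77.5 to 83.6 CPM per kb in WT libraries, so the genotypes overlapped in the family's total. No test was made on shares or sums, because they hold Eml5 or rest on the choice of members.

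No pair of members was found to vary together from library to library. Of the 10 pairs that leave out Eml5, none passed an exact permutation test of Pearson's r over the 8 libraries after adjustment over the 10 pairs (lowest adjusted p = 0.564). The pair with the lowest p was Eml2 and Eml3, with r = 0.64 (exact permutation p = 0.0811) and Spearman's rho = 0.76 (exact permutation p = 0.0368; adjusted p = 0.368). Without the 2 libraries farthest from the median of Eml2 the r of that pair was -0.050. Leaving out the extremes of Eml2 narrows its range and by itself tends to lower r. This value therefore cannot show that the relation rested on those libraries. With the genotype means subtracted, the r of Eml2 and Eml3 was 0.71, as a description. With Eml5, the other members had r between -0.40 for Eml2 and 0.29 for Eml6 over the 8 libraries, both genes being read from the same library at the same depth. After the genotype means were subtracted, r was 0.63 for Eml2, 0.52 for Eml3, 0.09 for Eml6, -0.15 for Eml1 and -0.74 for Eml4. The sign for Eml2 thus turned with the genotype gap taken out, and all these values are descriptions.

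Over the 8 libraries, 80 of the 13202 genes ranked had an r of at least 0.9 with Eml5 in log2 CPM. Those that followed it most closely were Fam227a, Gabpb2, Cers4, Cars2 and Atg4a, with r of 0.97 to 0.98. Each also parted the genotypes with KO above WT, which the ranking favours, and the libraries and their depth are shared by all genes. Gabpb2, a subunit of the GABP transcription factor, stood at 26.1 to 29.2 CPM in KO and 20.96 to 22.96 CPM in WT libraries. Cers4, a ceramide synthase, had 61.0 to 66.3 CPM in KO and 53.4 to 58.2 CPM in WT libraries. Cars2 encodes the mitochondrial cysteinyl-tRNA synthetase and Atg4a a protease of autophagy. Cars2 stood at 11.6 to 13.4 CPM in KO and 10.1 to 11.5 CPM in WT libraries, and Atg4a at 2.14 to 2.67 CPM in KO and 1.45 to 1.77 CPM in WT libraries. The little-studied Fam227a had 2.94 to 4.03 CPM in KO and 2.09 to 2.62 CPM in WT libraries.

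After the genotype means were subtracted, 354 of the 13202 genes had an r of at least 0.9, so a close match was common. The closest genes were others: Celf3, Cdc25b, Col11a2, Miip and Tial1, with r of 0.99 after that subtraction. With the genotype means left in, their r ran from 0.47 for Celf3 to 0.88 for Tial1. Celf3 and Tial1 encode RNA-binding proteins that act in splicing, and Cdc25b a phosphatase of the cell cycle. None of these 5 parted the genotypes. For Celf3 the KO libraries had 174.5, 164.2, 146 and 108.1 CPM, against 149.5, 127.7, 156 and 135.7 CPM in WT libraries. KO replicate 4, the KO library lowest in Eml5, was also the lowest in Celf3, and how far this library alone sets the ranking was not tested.

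Partners of the family were taken as a list of 22 genes: the mitotic kinases Nek6, Nek7 and Nek9 that phosphorylate or bind EML proteins, the chaperone-like NudC, and the gamma-tubulin ring and augmin complexes that nucleate microtubules. All 22 were tested and edgeR called none (0% of all genes). Of them 11 lay above 0 and 11 below, with a median log2 fold change of -0.00047. None was at an unadjusted p under 0.05, against 6.16% of all genes tested. Nek9 had 85.3 ± 1.67 CPM in KO and 82.8 ± 1.27 CPM in WT, and Nudc 41.1 ± 3.37 CPM in KO and 41.1 ± 2.82 CPM in WT (SD, n = 4 each). The lowest p belonged to Tubg2, the brain-enriched gamma-tubulin, at 30.9 ± 2.88 CPM in KO and 34.2 ± 2.46 CPM in WT, and its log2 difference was -0.15 (SE 0.08; edgeR, adjusted p = 0.796). Mzt2 and Haus7, small subunits of the 2 complexes, stood at -0.10 and -0.13. Haus5 stood at 0.42 with only 10 to 20 counts a library.

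Other microtubule-binding proteins lay mostly lower. Of 34 listed and tested genes 7 had a log2 fold change above 0 and 27 below, with a median of -0.07, where 50.1% of all genes tested lay above 0. The median was -0.029 without KO replicate 1, -0.039 without KO replicate 2 and -0.11 without KO replicate 4. The list holds abundant genes such as Map2, at 1783 CPM in KO and 1832 CPM in WT. All genes tested were not matched to it by level. Whether genes of like level also lay mostly below 0 was not tested. edgeR called none of the 34 (0% of all genes tested). At an unadjusted p under 0.05 there was 1 higher, Map7, and 2 lower, Ndel1 and Clip2, against 3.96% and 2.2% of all genes. Map7, which recruits kinesin-1, had 79.0 ± 2.78 CPM in KO and 69.5 ± 7.19 CPM in WT, with overlapping ranges. Ndel1, a regulator of dynein, had 73.4, 73.8, 76.5 and 69.0 CPM in KO libraries, against 83.1, 81.7, 78.0 and 78.7 CPM in WT libraries. It was the only gene of this list in which the genotypes parted, as 1.92% of all genes tested did with KO below WT. Clip2, which tracks growing plus ends, had 174 ± 5.59 CPM in KO and 194 ± 13.1 CPM in WT, and Map7d2 149 ± 15.3 CPM in KO and 164 ± 6.45 CPM in WT (edgeR adjusted p = 0.796 for each of these 4 genes).

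The tubulin genes themselves, whose products form the lattice that EML proteins bind, had 11 of 12 members below 0, and the median of their log2 fold changes was -0.10 (-0.044 without WT replicate 2). edgeR called none, as it called 0% of all genes tested. None was at an unadjusted p under 0.05, against 6.16% of all genes, and every gene overlapped between genotypes, where 3.8% of all genes parted. With 12 genes, the counts by p and by parted genotypes do not set the tubulins apart from all genes. Of all genes tested, 50.1% had a log2 fold change above 0, but these were not matched to the tubulins by level. The count of tubulins below 0 was not tested against that share. Tubb4a had 599 ± 66.0 CPM in KO and 680 ± 63.1 CPM in WT (log2 fold change -0.18, SE 0.09). Tubb3, the neuronal beta-tubulin, had 216 ± 15.6 CPM in KO and 237 ± 11.1 CPM in WT, and Tubb2a 333 ± 27.9 CPM in KO and 371 ± 35.4 CPM in WT. Tuba1a, the main neuronal alpha-tubulin, had 254 ± 5.17 CPM in KO and 269 ± 17.99 CPM in WT. Levels of single tubulin genes are uncertain, because their coding sequences are close copies of each other and the sources used here do not give the counting rule for shared reads.

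**Figure D5:**
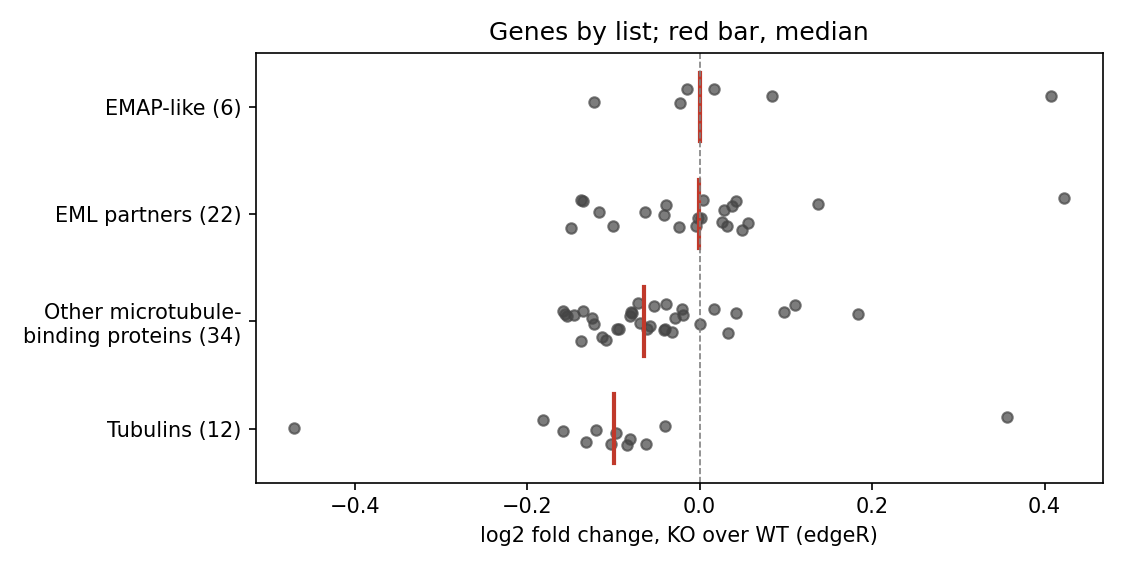
Log2 fold change, KO over WT, of each tested gene (points) in the EMAP-like family, its 22 partners, 34 other microtubule-binding proteins and 12 tubulins; red bars are medians. Eml5 is the rightmost point of its row at 0.41, and the medians of the other rows are -0.00047, -0.07 and -0.10.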

How the data were processed

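The authors deposited raw counts per Ensembl gene, 1 column per library, without normalization, per the file headers. Libraries were made from 1000 ng of total RNA with a stranded poly(A) kit and 12 PCR cycles, per the labels' protocols. The submitters' processing notes name bcl2fastq 2.17.1.14 and mm10. For the aligner, the counter and its strand setting, the entry is: not given in the sources used here. Symbols were found for 31292 of the 31417 gene IDs.

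Genotypes were compared, KO over WT, in edgeR 4.0.16 under R 4.3.3 (TMM scaling, filterByExpr, robust quasi-likelihood F test, Benjamini-Hochberg adjustment over 16228 genes, threshold 0.05), a pipeline tested on simulated data first. The SE is the log2 fold change divided by the square root of F. CPM uses the TMM factors, and log2 CPM a prior count of 2. Single genes and levels per kb were compared by exact permutation over libraries. Alternatives were DESeq2 1.42.0, limma-voom (limma 3.58.1), other scalings and filters, the replicate number as a block and each library left out. Libraries were not copies of each other, with a chi-square per degree of freedom of 8.85 to 40.9 between those of a genotype over genes whose counts in the pair summed to 20 or more.

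The members, lists and tests were chosen with earlier results of these data known. Named genes are the 6 members, Dclk3, the 5 genes most like Eml5 with and without genotype means (mean CPM of at least 1; no Gm or Rik names or pseudogenes), the 4 lowest p values of each list and the tested coding genes within 1 Mb of Eml5. Any further gene was picked with its values in view.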

Additional observations from a re-analysis of the deposited data

Results flagged for a closer look

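In groups of 4 libraries, 6 values stood far from the other 3 of their genotype, among 78 groups examined, where chance gives about 3.9. Dclk3 was 39.3 CPM in WT replicate 2, against 20.8 to 23.5 CPM in the other WT libraries. Zc3h14, which overlaps Eml5, was 79.4 CPM in WT replicate 2, against 74.6 to 75.1 CPM. Among the neighbours of Eml5, Kcnk10 was 4.71 CPM in KO replicate 3, against 4.90 to 4.93 CPM in the other KO libraries, and Spata7 was 16.5 CPM in KO replicate 2, against 14.4 to 14.7 CPM. Summed CA1 pyramidal cell markers were 1069 CPM in KO replicate 3, against 863 to 889 CPM, and summed microglia markers were 740 CPM in KO replicate 4, against 644 to 659 CPM. No member of the EMAP-like family was among them.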

How the results depend on the processing

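Eml5 stayed higher in KO and Eml2 lower in each of 16 alternative fits. With 1 library left out the log2 fold change of Eml5 ran from 0.38 to 0.46, Eml2 from -0.15 to -0.093, Eml1 from -0.0083 to 0.046, Eml3 from -0.12 to 0.030, Eml4 from -0.054 to 0.035 and Eml6 from -0.013 to 0.13. Single libraries set the sign of 4 members: Eml1 was -0.0083 without WT replicate 1, Eml3 was 0.030 when KO replicate 3 was left out and 0.011 when KO replicate 4 was, Eml4 was 0.031 without KO replicate 1, and 0.035 when WT replicate 4 was left out, and Eml6 was -0.013 without WT replicate 2. Upper quartile scaling gave 0.0032 for Eml4. In the libraries low in choroid plexus markers, an alternative chosen after seeing the data, Eml3 was 0.057 and Eml6 -0.11.

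Calls over the whole table numbered 4 with DESeq2, 1 with the replicate block (Dclk3), and 0 to 1 with a library left out (1 each without KO replicate 4, WT replicate 1, WT replicate 2 or WT replicate 3). Genes at an unadjusted p under 0.05 numbered 556 to 1777 with a library left out, with 640 without KO replicate 2, 1777 without KO replicate 4 and 556 without WT replicate 4. The replicate block gave a log2 fold change of 0.41 for Eml5 and changed no call of a member. Over all genes, replicate numbers showed little sign of pairing the libraries. Same-numbered deviations correlated at -0.22 to 0.14, and 1 of 4 KO libraries correlated best with its own number. Choroid plexus markers did run with the number, since replicates 2 and 3 of both genotypes held over 900 CPM of them. Whether same-numbered libraries were handled together was not tested. The median of the other microtubule-binding proteins ran from -0.11 to -0.029 over the alternatives, that of the tubulins from -0.14 to -0.044, and that of the coding genes around Eml5 from 0.036 to 0.10, with no called member. All 5 neighbouring pairs in the order of levels, of which those with Eml5 are descriptions, passed with the longest transcript as length, but Eml1 then stood above Eml4; leaving out a library left 4 to 5 pairs, with Eml4 and Eml1 the pair lost. The median SE over all genes tested was 0.105 on the log2 scale. The cause of these shifts was not tested.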
